A study of Homo sapiens with 6 samples.

Results

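The 36 genes described here encode the proteins that bring glucose into the cell and carry it through glycolysis, the pyruvate and lactate branch point and the pentose phosphate pathway. They were taken by name from a list of pathway members, and all 36 were found among the 20503 genes of the count table. Their mRNA levels were compared between 3 RNA-seq libraries of T47D, a human breast cancer cell line, and 3 of T47D-TR, its tamoxifen-resistant subline. T47D-TR was maintained with 1 µM 4-hydroxytamoxifen, the active form of the antioestrogen tamoxifen, while no drug is named for T47D. DMEM with 10% fetal bovine serum was used for both. The subline and its drug therefore cannot be told apart, and T47D-TR stands for a single resistant line. Whether the libraries of a group came from separately grown cells is not stated, so what the p-values weigh is the spread among the libraries at hand, possibly a purely technical one.

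Glucose enters cells through facilitative transporters and is trapped by hexokinase as glucose 6-phosphate. That phosphate can run down glycolysis to pyruvate, be stored as glycogen through phosphoglucomutase, or enter the pentose phosphate pathway, which yields NADPH and ribose. Pyruvate is either reduced to lactate by lactate dehydrogenase or passed to the mitochondrial pyruvate dehydrogenase complex, which pyruvate dehydrogenase kinases switch off. Many steps are served by isozymes from separate genes, and cancer cells are known for high glucose uptake and lactate output even in the presence of oxygen. Hypoxia-inducible factors and MYC are textbook regulators of several of these genes.

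Libraries held 17199315 to 19867230 counts. Levels are given as CPM, the count scaled to a common, TMM-adjusted library size, and fold changes are T47D-TR over T47D. A value after ± is an SD over 3 libraries for a level or a share, and an SE for a log2 fold change. A gene is called at an edgeR quasi-likelihood adjusted p under 0.05 over all 15961 tested genes, 2-sided. T47D-TR replicate 3 stood apart, with a Pearson r of log2 CPM of 0.991 and 0.990 with its own group, against 0.994 for the other pairs within a group. The submitters describe T47D as ER-positive, yet the oestrogen receptor gene ESR1 was read at 0 to 0.204 CPM in the 6 libraries. The luminal marker GATA3 was at 0.570 to 1.39 CPM, and AGR2 had no counts in T47D, while the luminal keratin genes KRT8 and KRT18 were at 661 CPM or more. In the whole luminal list, 6 of 9 tested markers rose and 2 fell, and the list summed to between 2211 and 2296 CPM in T47D, against 2696 to 3080 CPM in T47D-TR. Of the other listed markers, FOXA1 was at 5.16 to 11.9 CPM and CDH1 at 1.45 to 8.1 CPM in the 6 libraries. Higher ones were EPCAM (12.1 to 39.1 CPM), KRT19 (26.4 to 116 CPM), XBP1 (59.4 to 173 CPM) and TFAP2A (105 to 120 CPM). The luminal markers were thus mixed, with ESR1 near 0, GATA3 and AGR2 low, and KRT8 and KRT18 high. The identity of these cells is in doubt in both groups and was not tested. T47D and T47D-TR are used here as the names the labels give. The 6 fibroblast markers summed to 36.4 to 39.8 CPM in T47D libraries, against 20.4 to 26.7 CPM in those of T47D-TR, with 2 of 3 tested markers lower. LUM fell from 13.9 ± 1.80 to 0.253 ± 0.09 CPM (edgeR adjusted p = 7.43e-10), and PDGFRB fell from 5.72 ± 0.10 to 3.58 ± 0.31 CPM. COL1A1 was at 18.1 ± 1.04 and 17.4 ± 1.07 CPM and did not pass the test. COL1A2 and DCN had no counts in T47D and were at 1.30 and 1.12 CPM in T47D-TR replicate 3, where COL3A1 was at 2.19 CPM. Blood and endothelial markers summed to 22.6 to 26.3 CPM in T47D libraries and to 79.9 to 102 CPM in the others, where both tested markers, CD68 and PECAM1, rose. The leukocyte marker PTPRC stayed at or under 0.108 CPM in every library. The part of these markers in the results below was not tested. In a bulk sample a change in the share of cells of a type and a change in RNA per cell cannot be told apart.

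Of the 36 genes, 18 rose in T47D-TR, 9 fell and 9 did not pass the test. The 27 called genes are 75% of the set, where 63% of all tested genes were called. Rises made up 50% of the set against 32.5% of all tested genes, and falls made up 25% against 30.5%. All 36 passed the filter on low counts, and their median level was 123 CPM against 19.5 CPM for all tested genes. The 5 genes called at least 2-fold higher were SLC2A3, ENO2, PDK1, ALDOC and H6PD, or 13.9% of the set against 10.1% of all tested genes. The deepest fall was that of RPIA at 1.75-fold, whereas 3.87% of all tested genes were called at least 2-fold lower. The CPM of both groups did not overlap for 28 members (77.8%), as for 68.3% of all tested genes. The median log2 fold change was 0.10, against 0.0019 over all tested genes, and the median size of change was 0.44 against 0.36. Without T47D-TR replicate 3, 29 members were called, 19 higher and 10 lower, and 6 were at least 2-fold higher. Calls over all genes rose as well when it was left out, from 10053 to 10663. No share of 2-fold rises over all genes is given for that setting.

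**Figure D1:**
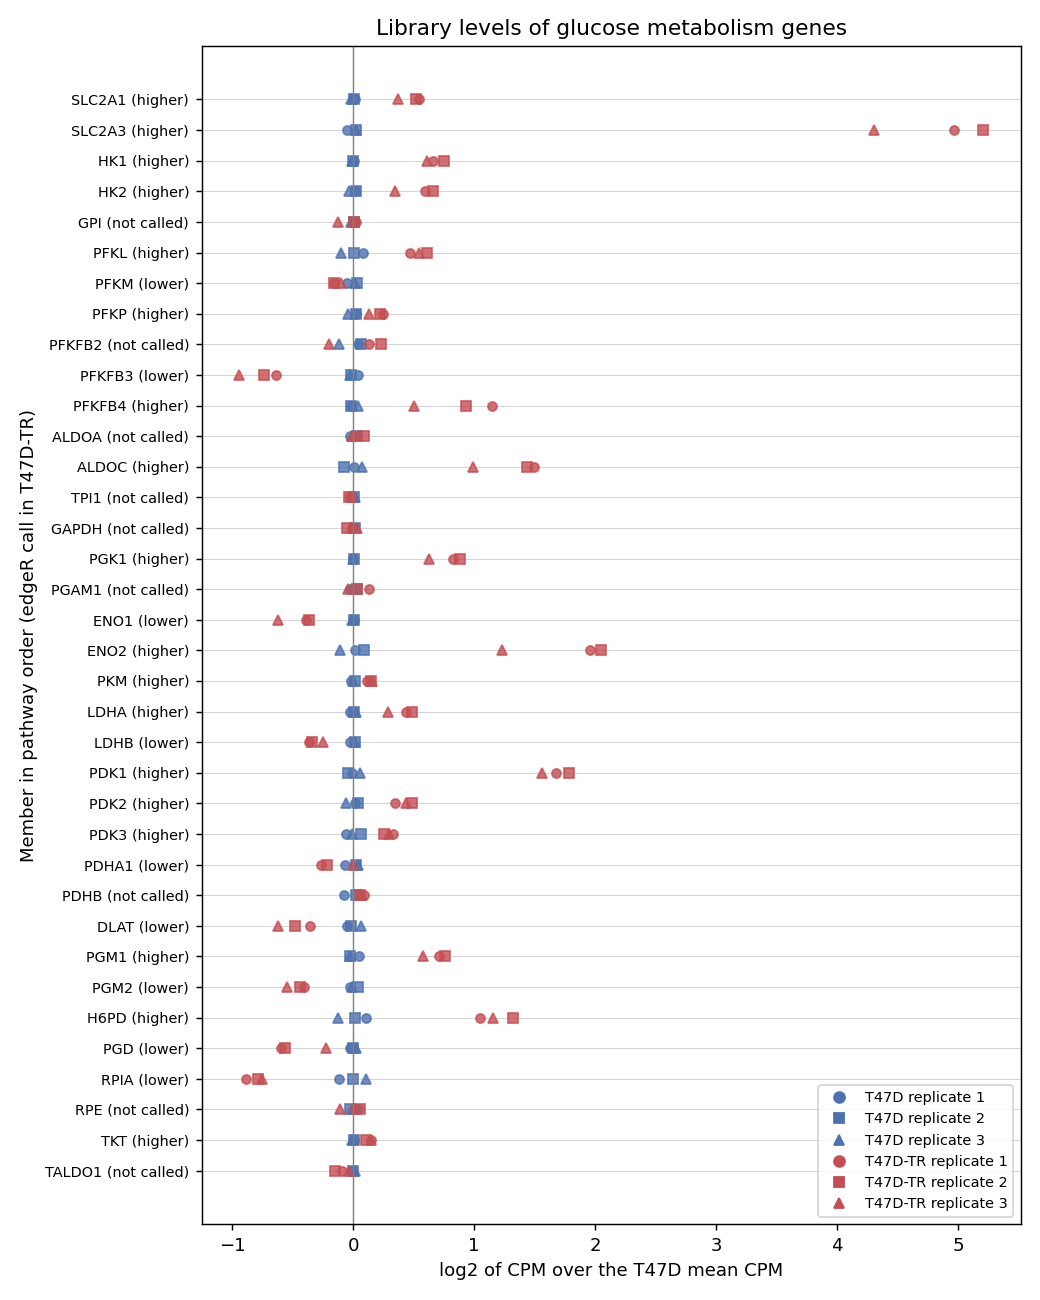
Level of each member in each library, as log2 of its CPM over the T47D mean CPM, in pathway order from uptake at the top. Blue marks are T47D and red marks T47D-TR, with a shape for each replicate. SLC2A3 stands at the far right, and T47D-TR replicate 3 (red triangles) was the lowest T47D-TR library for 12 of the 18 genes that rose.

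Among the transporters, SLC2A3 showed the largest change of the set. SLC2A3 encodes GLUT3, a high-affinity glucose transporter best known from neurons, and lies at chr12:7919230-7936187 (GRCh38.p14, minus strand). It was at 6.51, 6.85 and 6.85 CPM in T47D and at 210, 249 and 133 CPM in T47D-TR. The T47D-TR libraries were far above the T47D libraries, with replicate 3 the lowest of them. The rise was 29.3-fold (log2 4.87 ± 0.27, SE, edgeR adjusted p = 1.83e-09). SLC2A1, which encodes the widespread transporter GLUT1 (chr1:42925353-42958868, minus strand), was at 94.8, 94.1 and 92.4 CPM in T47D and 136, 135 and 121 CPM in T47D-TR. This was a 1.4-fold rise (log2 0.48 ± 0.05, edgeR adjusted p = 5.87e-06). Together the transporter pair went from a summed 100.5 ± 1.06 CPM to 328 ± 66.5 CPM (SD, n = 3). In T47D, SLC2A3 took 6.43, 6.78 and 6.90% of the pair's counts. In T47D-TR it took 60.7, 64.9 and 52.3%, so that more than an even share of the transporter reads came from SLC2A3 in each T47D-TR library.

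Both hexokinase genes, whose products trap glucose by phosphorylation, rose by similar factors. HK1, the broadly expressed form (chr10:69270000-69401882, plus strand), was at 200, 198 and 198 CPM in T47D and 315, 335 and 304 CPM in T47D-TR. HK2, the inducible form common in tumours (chr2:74834127-74893359, plus strand), was at 82.8, 83.4 and 80.0 CPM against 124, 129 and 104 CPM. Neither gene's groups overlapped. The rises were 1.60-fold for HK1 (edgeR adjusted p = 6.85e-08) and 1.46-fold for HK2 (edgeR adjusted p = 2.47e-05). HK1 thus kept most of the pair's counts, with HK2 taking 29.2 ± 0.42% in T47D and 27.3 ± 1.47% in T47D-TR. GPI, the isomerase that turns glucose 6-phosphate into fructose 6-phosphate, was at 499 ± 4.33 CPM in T47D and 489 ± 27.7 CPM in T47D-TR (edgeR adjusted p = 0.588).

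Phosphofructokinase, the committed step of glycolysis, is assembled from the products of PFKL, PFKM and PFKP. The liver-type gene PFKL was at 37.6, 35.7 and 33.1 CPM in T47D and 49.0, 54.2 and 51.6 CPM in T47D-TR, and rose 1.46-fold (edgeR adjusted p = 1.43e-05). The platelet-type gene PFKP, which held most of the reads of the family, was at 302 ± 7.43 CPM in T47D and 348 ± 14.6 CPM in T47D-TR, a 1.15-fold rise (edgeR adjusted p = 0.00135). The muscle-type gene PFKM was at 141 ± 3.98 CPM against 128 ± 3.13 CPM, a fall of 1.10-fold (edgeR adjusted p = 0.018). The PFKM call is weak: it was lost without T47D replicate 2, T47D replicate 3, T47D-TR replicate 1 or T47D-TR replicate 2, with edgeR adjusted p values of 0.0516 to 0.0729. The summed level of the step was 478 ± 8.25 CPM in T47D and 527 ± 11.0 CPM in T47D-TR, with no overlap.

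The PFKFB genes encode bifunctional enzymes that make or remove fructose 2,6-bisphosphate, the strongest activator of phosphofructokinase, and here their levels moved in opposite directions. PFKFB3, whose enzyme has high kinase activity (chr10:6144921-6326637, plus strand), was at 55.0, 52.8 and 52.6 CPM in T47D and 34.3, 32.1 and 27.8 CPM in T47D-TR. PFKFB4 (chr3:48517684-48563136, minus strand) was at 24.4, 24.4 and 25.5 CPM in T47D and 54.9, 47.2 and 35.1 CPM in T47D-TR. All 3 T47D-TR libraries lay below T47D for PFKFB3 and above it for PFKFB4. PFKFB3 fell 1.70-fold (log2 -0.76 ± 0.09, edgeR adjusted p = 1.85e-06), and PFKFB4 rose 1.85-fold (log2 0.89 ± 0.19, edgeR adjusted p = 5.1e-05). PFKFB2, known from heart, was at 25.4 ± 1.72 and 26.5 ± 3.99 CPM and did not pass the test, but was called higher without T47D-TR replicate 3 (log2 0.18, edgeR adjusted p = 0.0319). The summed level of the 3 genes was 104 ± 2.08 CPM in T47D and 104 ± 16.7 CPM in T47D-TR. PFKFB3 took 51.6% of their counts in T47D and 30.5% in T47D-TR, while PFKFB4 took 23.9% and 43.8%.

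Hypoxia-inducible factors read the core letters ACGTG or GCGTG, and MYC and related factors read CACGTG. For this reason, promoters of some isozyme partners that moved in opposite directions are shown. They are from the PFKFB, enolase, lactate dehydrogenase and phosphoglucomutase families. The 250 bases before a RefSeq gene start (GRCh38.p14) are given 5′ to 3′ on the gene's strand, with the ACGTG and GCGTG strings, on either strand, in capitals. The pairs printed were picked after their calls and matches had been seen, so they illustrate and support nothing. The phosphofructokinase genes also had opposite calls but are not printed. There PFKL, which rose, held 1 match, while PFKP, which rose, and PFKM, which fell, held none. For PFKFB3 the window is chr10:6144671-6144920, and for PFKFB4 it is chr3:48556804-48557053, a start inside the span of the gene given above.
PFKFB3: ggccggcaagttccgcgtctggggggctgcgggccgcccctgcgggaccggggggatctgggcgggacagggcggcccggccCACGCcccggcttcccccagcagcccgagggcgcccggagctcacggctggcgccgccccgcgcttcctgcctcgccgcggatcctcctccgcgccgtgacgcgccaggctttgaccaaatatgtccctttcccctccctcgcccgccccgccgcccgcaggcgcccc
PFKFB4: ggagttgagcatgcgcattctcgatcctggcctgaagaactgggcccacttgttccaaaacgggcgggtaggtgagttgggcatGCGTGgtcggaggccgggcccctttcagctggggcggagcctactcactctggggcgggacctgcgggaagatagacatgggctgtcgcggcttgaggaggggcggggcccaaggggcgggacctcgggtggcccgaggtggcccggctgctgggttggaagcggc
PFKFB3, which fell, and PFKFB4, which rose, each held 1 match in this window.

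In the middle of glycolysis ALDOA, TPI1, GAPDH and PGAM1 did not pass the test, while ALDOC and PGK1 rose. ALDOA, the main aldolase gene, was at 957 ± 17.9 CPM in T47D and 977 ± 34.8 CPM in T47D-TR (edgeR adjusted p = 0.515). ALDOC, the brain-type aldolase gene (chr17:28573120-28576895, minus strand), was at 9.90, 9.35 and 10.4 CPM in T47D and 27.8, 26.7 and 19.6 CPM in T47D-TR. ALDOC rose 2.51-fold (log2 1.33 ± 0.16, edgeR adjusted p = 1.5e-06), yet it supplied only 2.46 ± 0.40% of aldolase counts in T47D-TR, after 1.02 ± 0.07% in T47D. The isomerase gene TPI1 was at 908 ± 13.3 and 894 ± 4.67 CPM, with an edgeR adjusted p = 0.557. GAPDH, often used as a reference gene, was at 6970, 7032 and 6904 CPM in T47D and 6933, 6709 and 7126 CPM in T47D-TR (edgeR adjusted p = 0.801). It stayed uncalled under the 3 other scalings in edgeR (edgeR adjusted p = 0.191 to 0.722). With voom and quantile normalization, which changes test and scaling together, GAPDH was called lower (log2 -0.54, limma adjusted p = 2.01e-07) and so was TPI1 (log2 -0.09, limma adjusted p = 0.0195). That normalization shifted the median of all tested genes by -0.11. The mutase gene PGAM1 was at 201 ± 4.02 and 207 ± 12.9 CPM and did not pass the test.

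PGK1 encodes phosphoglycerate kinase, the first ATP-yielding step, and lies at chrX:78104248-78129295 on the plus strand. It was at 601, 606 and 601 CPM in T47D and 1070, 1109 and 929 CPM in T47D-TR. The groups did not overlap, and the rise was 1.72-fold (log2 0.78 ± 0.08, edgeR adjusted p = 1.32e-07). GAPDH, which acts just before PGK1, and PGAM1, which acts just after it, were not called.

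The enolase genes, which serve the next step, also parted. ENO1, the ubiquitous form (chr1:8861000-8878686, minus strand), was at 2229, 2224 and 2197 CPM in T47D and 1691, 1717 and 1440 CPM in T47D-TR. ENO2, the neuronal form and a widely used neuroendocrine marker (chr12:6914580-6923697, plus strand), was at 7.32, 7.66 and 6.69 CPM against 28.1, 30.0 and 16.9 CPM. T47D-TR replicate 3 was the lowest T47D-TR library for both genes, although one fell and the other rose. ENO1 fell 1.37-fold (log2 -0.46 ± 0.08, edgeR adjusted p = 1.41e-05), and ENO2 rose 3.47-fold (log2 1.80 ± 0.27, edgeR adjusted p = 2.9e-06). ENO2 supplied only 0.325 ± 0.02% of enolase counts in T47D and 1.5 ± 0.30% in T47D-TR, and summed enolase went from 2224 ± 17.8 to 1641 ± 160 CPM. PKM, the pyruvate kinase gene, went up 1.10-fold, with 2861 ± 33.9 CPM in T47D and 3147 ± 48.7 CPM in T47D-TR (edgeR adjusted p = 0.00184). The counts are per gene, so they do not separate the M1 and M2 forms of PKM.

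The windows of the enolase genes, at chr1:8878687-8878936 for ENO1 and chr12:6914330-6914579 for ENO2, are printed in the same way, with ACGTG and GCGTG in capitals.
ENO1: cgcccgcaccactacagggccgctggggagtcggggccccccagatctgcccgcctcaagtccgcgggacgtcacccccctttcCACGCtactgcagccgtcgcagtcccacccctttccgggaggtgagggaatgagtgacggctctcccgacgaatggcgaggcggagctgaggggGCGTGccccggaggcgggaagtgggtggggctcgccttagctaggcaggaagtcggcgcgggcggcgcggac
ENO2: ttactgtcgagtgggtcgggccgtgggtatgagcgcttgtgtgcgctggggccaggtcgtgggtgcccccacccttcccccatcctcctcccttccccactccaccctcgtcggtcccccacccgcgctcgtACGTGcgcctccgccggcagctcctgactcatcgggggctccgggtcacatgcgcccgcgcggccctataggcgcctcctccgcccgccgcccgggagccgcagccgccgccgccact
ENO1, which fell, held 2 matches, and ENO2, which rose, held 1.

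At the pyruvate branch point, LDHA rose and LDHB fell. LDHA, which encodes the muscle-type subunit that favours lactate formation (chr11:18394563-18408425, plus strand), was at 1696, 1735 and 1760 CPM in T47D and 2346, 2429 and 2115 CPM in T47D-TR. LDHB, the heart-type subunit gene (chr12:21635342-21657842, minus strand), was at 1117, 1152 and 1151 CPM against 884, 902 and 958 CPM. Neither gene's groups overlapped, and T47D-TR replicate 3 was the T47D-TR library nearest to T47D for both. LDHA rose 1.33-fold (log2 0.41 ± 0.06, edgeR adjusted p = 8.14e-06), and LDHB fell 1.25-fold (log2 -0.32 ± 0.04, edgeR adjusted p = 1.51e-05). LDHB took 39.7, 39.9 and 39.5% of the pair's counts in T47D and 27.4, 27.1 and 31.2% in T47D-TR.

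The LDHA window is chr11:18394313-18394562, and the LDHB window is chr12:21657843-21658092.
LDHA: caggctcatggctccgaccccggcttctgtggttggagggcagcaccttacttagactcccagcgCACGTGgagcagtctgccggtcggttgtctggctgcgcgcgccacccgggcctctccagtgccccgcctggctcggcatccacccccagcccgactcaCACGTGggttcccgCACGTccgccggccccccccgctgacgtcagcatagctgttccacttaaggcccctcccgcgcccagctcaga
LDHB: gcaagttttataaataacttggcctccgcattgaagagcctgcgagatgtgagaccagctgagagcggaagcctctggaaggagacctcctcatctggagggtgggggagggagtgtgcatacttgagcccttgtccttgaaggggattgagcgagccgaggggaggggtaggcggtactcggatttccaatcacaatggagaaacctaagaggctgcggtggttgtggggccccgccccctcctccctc
LDHA held matches at 3 places, 2 of them the palindrome CACGTG, which contains ACGTG on each strand, and LDHB held none.

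The 3 pyruvate dehydrogenase kinase genes of the set all rose, PDK1 by far the most. PDK1 (chr2:172555373-172724312, plus strand), a known target of hypoxia-inducible factors, was at 13.2, 12.9 and 13.8 CPM in T47D and 42.5, 45.7 and 39.1 CPM in T47D-TR. Its rise was 3.20-fold (log2 1.68 ± 0.07, edgeR adjusted p = 3.03e-09), with little difference among the T47D-TR libraries. PDK2 levels were 18.8 ± 0.65 CPM in T47D and 25.2 ± 1.19 CPM in T47D-TR, a 1.34-fold rise (edgeR adjusted p = 0.000255). PDK3 levels were 27.8 ± 1.15 and 34.1 ± 0.90 CPM, a 1.22-fold rise (edgeR adjusted p = 0.00147). Summed kinase levels went from 59.9 ± 1.22 to 102 ± 3.27 CPM. PDK3 held the largest share of kinase counts in T47D (46.4 ± 0.99%), and PDK1 held the largest in T47D-TR (41.6%, after 22.2% in T47D). These shares depend on transcript length. Per kilobase of transcript PDK3 was the highest in both groups, at 14.9 CPM in T47D and 18.3 CPM in T47D-TR. PDK1 was at 4.44 and 14.2 CPM per kb, and PDK2 at 7.55 and 10.1. Of the 3 genes for subunits of the enzyme complex they inhibit, DLAT, the acetyltransferase core, was at 124, 127 and 135 CPM in T47D and 100, 92.2 and 83.8 CPM in T47D-TR, and fell 1.4-fold (edgeR adjusted p = 2.74e-05). PDHA1, the catalytic alpha subunit, was at 299, 319 and 322 CPM against 260, 270 and 312 CPM, and fell 1.12-fold (edgeR adjusted p = 0.0416). The PDHA1 groups overlapped, since T47D-TR replicate 3 lay within the T47D range, and without that library its log2 change was -0.24 in place of -0.16. Its call was lost in 6 of the 14 alternatives: without T47D replicate 2 or 3, without T47D-TR replicate 1 or 2, at a mean CPM of at least 5 and with voom and quantile normalization. PDHB, the beta subunit gene, was at 73.1 ± 3.42 and 76.8 ± 0.79 CPM and did not pass the test.

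PGM1 and PGM2, phosphoglucomutase genes that link glucose 6-phosphate to glycogen and pentose phosphates to glycolysis, moved apart as well. PGM1, the main glucose form (chr1:63593411-63660245, plus strand), was at 128, 121 and 122 CPM in T47D and 202, 210 and 185 CPM in T47D-TR. PGM2, whose enzyme prefers phosphopentoses (chr4:37826686-37862937, plus strand), was at 65.3, 68.1 and 65.9 CPM against 50.0, 49.1 and 45.5 CPM. No library of one group reached the range of the other for either gene. PGM1 rose 1.61-fold (edgeR adjusted p = 2.94e-07), and PGM2 fell 1.38-fold (edgeR adjusted p = 1.2e-05). PGM2 took 34.9 ± 1.13% of the pair's counts in T47D and 19.5 ± 0.47% in T47D-TR.

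The windows of this pair, at chr1:63593161-63593410 for PGM1 and chr4:37826436-37826685 for PGM2, run the other way from those of LDHA and LDHB.
PGM1: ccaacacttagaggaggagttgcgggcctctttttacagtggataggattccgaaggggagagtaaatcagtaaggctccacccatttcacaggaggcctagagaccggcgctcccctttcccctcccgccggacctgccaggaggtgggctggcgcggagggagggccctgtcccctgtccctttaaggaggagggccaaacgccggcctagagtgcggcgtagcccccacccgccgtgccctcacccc
PGM2: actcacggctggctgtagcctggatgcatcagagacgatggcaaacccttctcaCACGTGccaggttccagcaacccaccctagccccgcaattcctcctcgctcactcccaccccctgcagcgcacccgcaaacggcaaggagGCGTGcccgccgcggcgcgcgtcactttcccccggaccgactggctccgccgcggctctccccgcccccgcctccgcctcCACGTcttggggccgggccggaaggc
PGM1, which rose, held no match, and PGM2, which fell, held matches at 3 places, one of them CACGTG.

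In the oxidative pentose phosphate branch, H6PD rose and PGD fell. H6PD encodes the hexose 6-phosphate dehydrogenase of the endoplasmic reticulum, which makes NADPH there (chr1:9234774-9271337, plus strand). It was at 9.09, 8.53 and 7.76 CPM in T47D and 17.5, 21.1 and 18.9 CPM in T47D-TR, a 2.27-fold rise (log2 1.18 ± 0.10, edgeR adjusted p = 7.61e-07). PGD, which encodes the cytosolic 6-phosphogluconate dehydrogenase (chr1:10399064-10420511, plus strand), was at 285, 289 and 295 CPM against 191, 196 and 248 CPM. All 3 T47D-TR libraries were below T47D for PGD, with replicate 3 closest to it, and the fall was 1.37-fold (log2 -0.45 ± 0.12, edgeR adjusted p = 0.000277). In the non-oxidative branch, which interconverts pentoses and glycolytic sugars, RPIA, the ribose 5-phosphate isomerase gene, fell 1.75-fold. RPIA (chr2:88691673-88750929, plus strand) was at 26.0, 28.2 and 30.4 CPM in T47D and 15.2, 16.4 and 16.7 CPM in T47D-TR (log2 -0.81 ± 0.08, edgeR adjusted p = 2.58e-06). TKT, the transketolase gene, was at 840 ± 6.79 CPM in T47D and 921 ± 14.9 CPM in T47D-TR, and rose 1.10-fold (edgeR adjusted p = 0.00431). The TKT call was lost with voom and quantile normalization (limma adjusted p = 0.0937). The epimerase gene RPE was at 78.1 ± 1.82 and 77.3 ± 4.60 CPM (edgeR adjusted p = 0.844). TALDO1, the transaldolase gene, was at 146 ± 1.85 and 137 ± 5.49 CPM without passing the test (edgeR adjusted p = 0.0916). It was called lower without T47D-TR replicate 3 (edgeR adjusted p = 0.0109) and with library size alone (edgeR adjusted p = 0.0229).

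Per kilobase of transcript, which allows levels to be compared between genes, the set spanned a wide range. GAPDH was the most abundant transcript in both groups, at 5449 CPM per kb in T47D and 5412 in T47D-TR. PKM and ENO1 were alike in T47D, at 1245 and 1244 CPM per kb, and in T47D-TR they were at 1369 and 907. H6PD (1.15 CPM per kb), SLC2A3 (1.72) and ENO2 (2.98) were the least abundant in T47D. In T47D-TR, SLC2A3 reached 50.4 ± 15.1 CPM per kb beside 62.1 ± 3.86 for SLC2A1, so per length the pair differed by less than the spread of SLC2A3. Large fold changes thus fell on members of low level in T47D: the 5 genes with at least 2-fold rises had at most 5.74 CPM per kb there. Lengths are the median over annotated coding transcripts of each gene, so these levels are approximate.

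**Figure D2:**
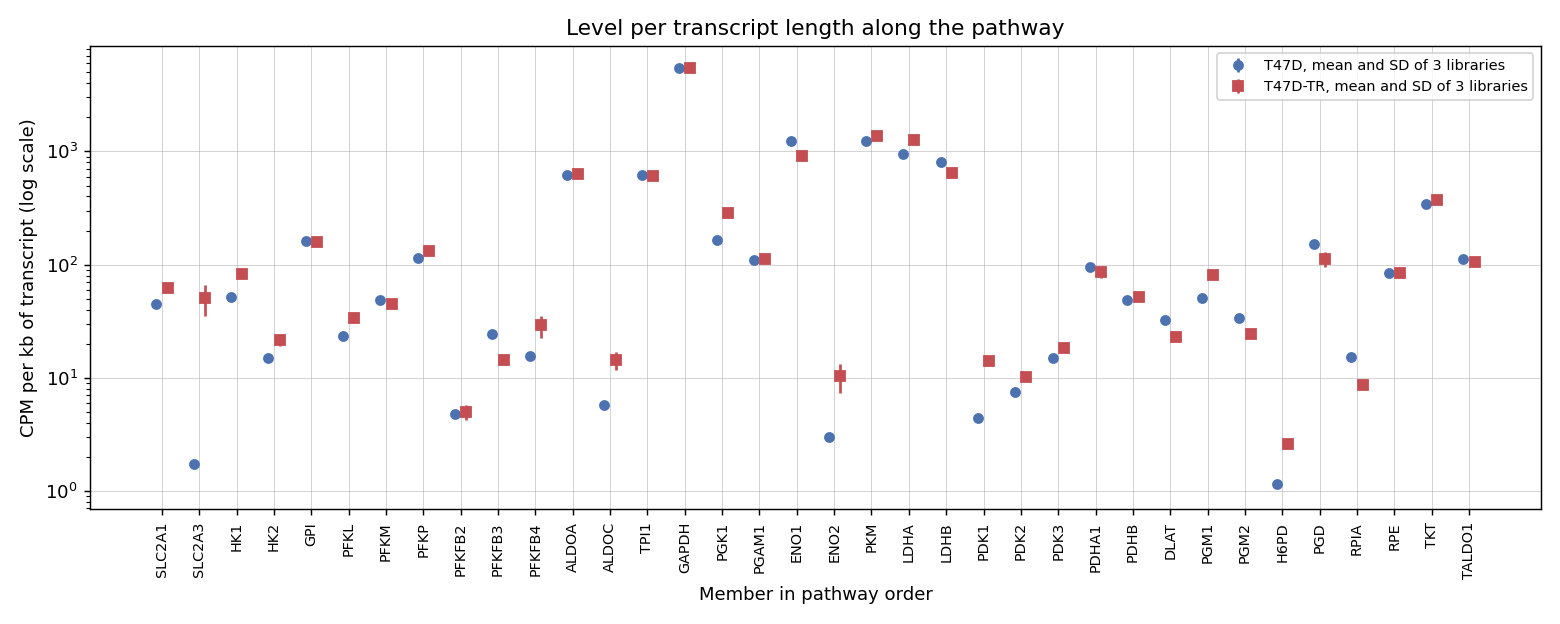
Mean level per kilobase of transcript (log axis) of each member in pathway order, with the SD of 3 libraries as error bars. Blue circles are T47D and red squares T47D-TR. The pairs of marks separate most for SLC2A3, ENO2, PDK1 and ALDOC, and those of GAPDH, TPI1 and ALDOA lie side by side.

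The share of a family's reads taken by an isozyme does not depend on how libraries are scaled. It does depend on transcript length, so only its change between groups is read. One share was tested in each of 9 families with a 2-sided exact permutation test, in which 3 libraries against 3 cannot go below p = 0.1. All 9 reached that smallest value (exact p = 0.1, and 0.1 after Benjamini-Hochberg adjustment over the 9), so no family passed a threshold of 0.05. In each family the tested share did not overlap between the 2 groups. The PFKFB2 share, which was not tested, did overlap, at 23.1 to 25.6% in T47D and 23.7 to 27.3% in T47D-TR. How often such shares part in other gene families was not examined. Differences ran from 52.6 percentage points for SLC2A3 and 19.9 for PFKFB4 to -15.4 for PGM2, -12.9 for PDK3 and -11.2 for LDHB. PFKP took 63.2 ± 0.64% of phosphofructokinase counts in T47D and 65.9 ± 1.43% in T47D-TR, and the ALDOC and ENO2 shares differed by 1.44 and 1.18 points. The HK2 share differed by -1.97 points, and by -1.13 points without T47D-TR replicate 3. The summed share of all 36 genes was 2.14, 2.17 and 2.14% of library counts in T47D and 2.21, 2.21 and 2.14% in T47D-TR. That difference of 0.0346 points was within the spread (exact permutation p = 0.3). It was 0.0904 points when TMM-adjusted library sizes were the denominator and 0.0569 points without T47D-TR replicate 3, both at the smallest exact p of 0.1.

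**Figure D3:**
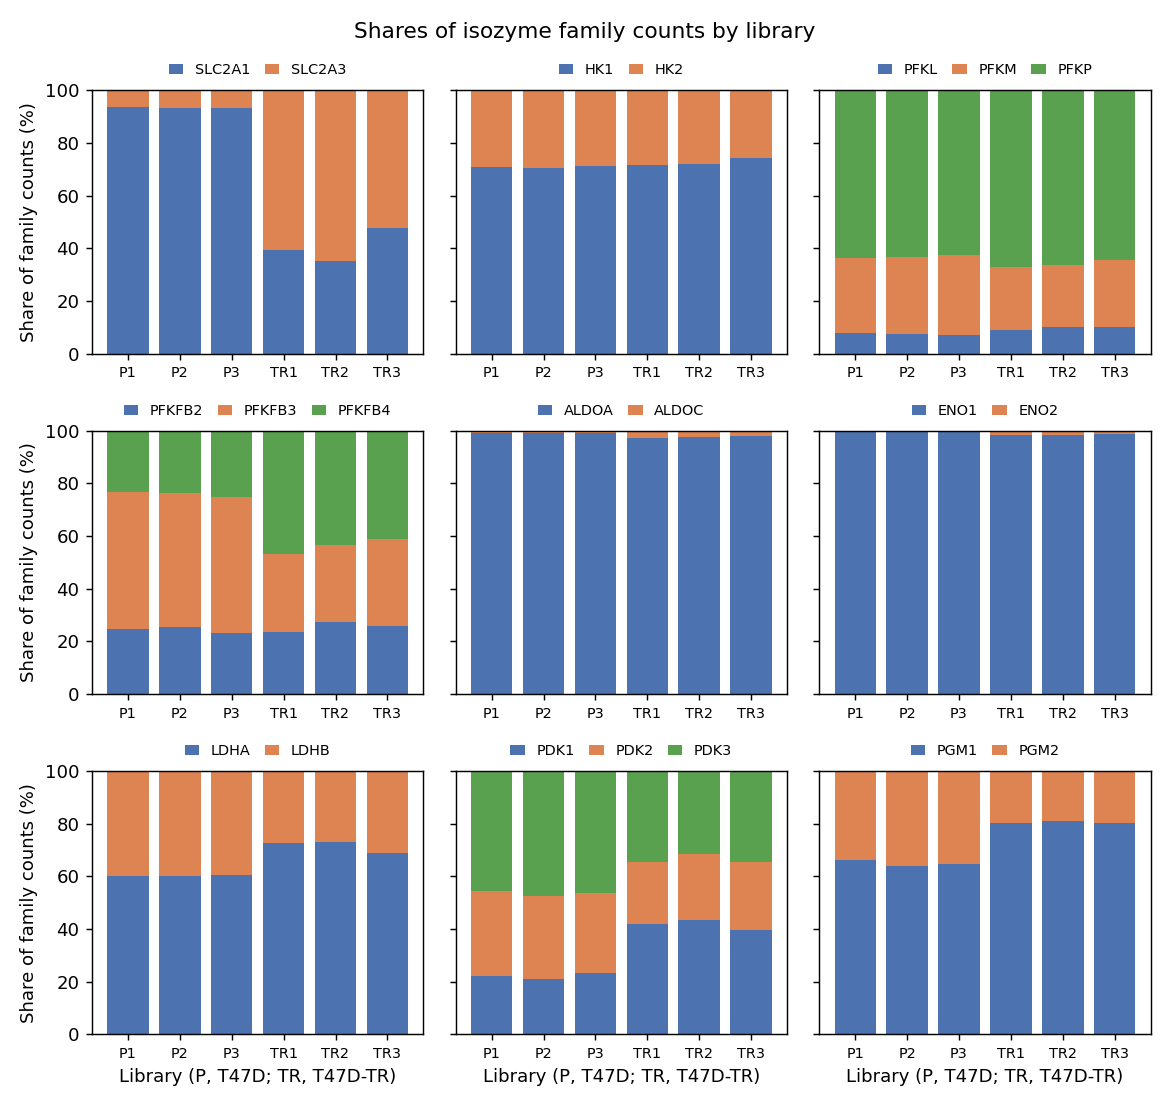
Share of each isozyme in the counts of its family, in percent, for each library (P1 to P3 are T47D and TR1 to TR3 are T47D-TR). Stacked colours are the genes named above each panel. The SLC2A3 segment widens from 6.43 to 6.90% in T47D to 52.3 to 64.9% in T47D-TR, whereas HK2 stays between 25.6 and 29.6% in all 6 libraries.

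Of the 36 genes, 34 were matched to the promoter table, and SLC2A3 and PFKFB2 were not. ACGTG was found in 13 of the 34 windows (38.2%) and in 18.7% of all 27305 windows of that length, on either strand. GCGTG was found in 14 (41.2%) against 31.9%, and CACGTG in 5 (14.7%) against 6.49%. At least 1 of ACGTG and GCGTG was in 8 of 17 genes that rose, 7 of 9 that fell and 4 of 8 that were not called, against 43.1% of all windows. That is 47.1% of the windows of genes that rose and 77.8% of those of genes that fell, a difference that was not tested. The windows were not matched for base composition, and the members' GC content ran from 35.6% for PDK1 to 79.2% for PFKFB3. The differences from all windows were not tested. A match describes the letters only, and other starts of these genes were not searched.

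T47D-TR replicate 3 was the lowest T47D-TR library for 12 of the 18 members that rose. Among all genes called higher it was the lowest for 40.6%. Its level over the mean of the other T47D-TR libraries had a median of 0.897 for the members that rose, against 0.999 for all genes called higher. The ratio was smallest for SLC2A3 (0.579), ENO2 (0.583) and PFKFB4 (0.687). For the members that fell it had a median of 1.04, with replicate 3 the lowest for 4 of them and the highest for 5. Without this library every called member kept its direction and its call, and the log2 fold change was 5.09 for SLC2A3, 2.01 for ENO2 and 1.04 for PFKFB4.

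Some members share exon bases or near-identical sequence with other genes, and shared reads are possible but were not measured. Exons of PDK2 overlap those of SAMD14 on the opposite strand over 54.6% of PDK2's exon bases, and SAMD14 had at most 0.161 CPM in any library. For RPE the overlap with KANSL1L is 23.9%, and KANSL1L was at 30.5 ± 1.54 and 27.2 ± 2.97 CPM. Over the annotation used, ALDOA and LDHB share 68.0% and 56.2% of their exon bases with another, unnamed coding gene model on the same strand. GAPDH has 62 named pseudogenes, PGAM1 has 13 and LDHA has 6, so their counts may depend on how reads of near-identical copies were assigned. SLC2A3, the gene with the largest change, has 3, of which 1 is itself among the counted genes. In the authors' deposited table, 24 of the 36 members had a false discovery rate under 0.05, 16 higher and 8 lower. The share of all genes under that rate in the authors' deposited table was not counted, so these numbers have no background beside them. The 3 genes called by edgeR but not in the authors' deposited table were PFKM, PKM and TKT, with false discovery rates there of 0.0699, 0.0642 and 0.0823.

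The surrounding pathways were read from 11 further lists with 114 tested genes, of which 50 rose and 28 fell. Each list's counts stand against 32.5% of all tested genes that rose and 30.5% that fell. Only the called gene with the largest rise and the one with the largest fall in each list is named, unless stated. Of 6 other hexose transporters 2 fell and 4 did not pass the test, with the urate and hexose transporter gene SLC2A9 falling from 1.08 ± 0.42 to 0.459 ± 0.22 CPM. Of 10 other glycolytic isozymes and side enzymes 4 fell and 6 did not pass, led by PGP, the phosphoglycolate phosphatase gene, from 29.1 ± 1.84 to 18.8 ± 2.44 CPM. Without T47D-TR replicate 3, 1 hexose transporter was called higher and 3 lower. Among 7 lactate and pyruvate transport genes 4 rose and 2 fell, while 4 rose and 3 fell when T47D-TR replicate 3 was left out. The monocarboxylate transporter gene SLC16A8 rose from 0.509 ± 0.12 to 1.35 ± 0.61 CPM. MPC1, a subunit of the mitochondrial pyruvate carrier, fell from 13.4 ± 1.66 to 8.79 ± 0.60 CPM.

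Of 8 other pyruvate dehydrogenase genes 2 rose and 4 fell. They included both phosphatase genes that reverse the kinases' action, in opposite directions. PDP1 was at 25.2 ± 1.52 CPM in T47D and 48.6 ± 6.71 CPM in T47D-TR, a rise (edgeR adjusted p = 2.36e-06). PDP2 was at 43.0 ± 1.74 CPM against 23.3 ± 2.32 CPM, a fall (edgeR adjusted p = 7.46e-07). Of 7 other pentose phosphate and ribose genes 2 rose and 2 fell. PGM2L1, a glucose 1,6-bisphosphate synthase gene, was at 4.41, 5.01 and 3.59 CPM in T47D and 5.39, 5.25 and 7.34 CPM in T47D-TR (edgeR adjusted p = 0.0358). Its highest T47D-TR library was thus replicate 3. PRPS1, which makes phosphoribosyl pyrophosphate, was at 83.6 ± 0.61 CPM in T47D and 59.6 ± 2.85 CPM in T47D-TR. Without T47D-TR replicate 3 that list had 1 rise and 3 falls. In gluconeogenesis 2 of 3 genes rose, led by the pyruvate carboxylase gene PC. PC was at 30.4, 28.9 and 31.2 CPM in T47D and 107, 122 and 118 CPM in T47D-TR (log2 1.94 ± 0.06, edgeR adjusted p = 1.28e-10), so the 2 groups were well apart.

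Of 20 glycogen genes 11 rose and 4 fell, with a median log2 fold change of 0.27. PPP1R3G, a glycogen-targeting phosphatase subunit gene, rose from 0.701 ± 0.15 to 3.32 ± 0.65 CPM, and GYG1, which encodes the primer protein glycogenin, fell from 39.8 ± 1.83 to 26.5 ± 0.65 CPM. Of 13 hexosamine and polyol genes 6 rose and 5 fell. GFPT2, an isoform of the rate-limiting hexosamine enzyme, was at 11.5, 11.4 and 12.7 CPM in T47D and 56.3, 51.2 and 50.6 CPM in T47D-TR, with no overlap (log2 2.15 ± 0.07, edgeR adjusted p = 2.45e-10). GNPNAT1, which acts later in the same pathway, fell from 189 ± 5.44 to 123 ± 3.05 CPM. Of 7 serine and glycerol phosphate genes 2 rose and 2 fell, with PSPH, the last enzyme of serine synthesis, at 70.4 ± 2.66 and 115 ± 29.5 CPM and GPD1L at 71.9 ± 1.74 and 58.5 ± 2.51 CPM. Without T47D-TR replicate 3, 4 genes of that list fell.

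Regulators and hypoxia-induced genes were examined because several members are known targets of the hypoxia pathway. Of 15 regulators 5 rose and 3 fell, while 7 rose and 4 fell when T47D-TR replicate 3 was left out. EPAS1, which encodes the hypoxia-inducible factor HIF-2 alpha, was at 119, 114 and 112 CPM in T47D and higher in every T47D-TR library, at 245, 254 and 220 CPM (log2 1.06 ± 0.07, edgeR adjusted p = 9.86e-09). ARRDC4, an arrestin gene whose product restrains glucose uptake, was at 4.91 ± 0.25 CPM in T47D and 0.754 ± 0.37 CPM in T47D-TR, a fall (log2 -2.72 ± 0.34, edgeR adjusted p = 1.38e-06). TXNIP, a related arrestin gene with a like role that was named after its values were seen, went the other way, with 14.9 ± 2.04 CPM in T47D and 20.9 ± 5.09 CPM in T47D-TR (edgeR adjusted p = 0.0137). HIF1A, named after its values were seen, rose from 289 ± 3.64 to 546 ± 35.5 CPM. MYC, also named after its values were seen, was at 949, 944 and 947 CPM in T47D and 1127, 1128 and 884 CPM in T47D-TR and did not pass the test (edgeR adjusted p = 0.104).

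Of 18 hypoxia-induced genes outside glycolysis, 16 rose and 2 did not pass the test, where 32.5% of all tested genes rose. The list was written with results of these samples known, so its direction is not independent evidence. Its median log2 fold change was 1.30, and CA9, a carbonic anhydrase gene, changed most, from 0.377, 0.307 and 0.482 CPM to 44.1, 53.0 and 29.9 CPM. Of the 16 that rose, 14 were lowest in T47D-TR replicate 3 among the T47D-TR libraries, as were 12 of the 18 risen glucose genes. The share was 40.6% among all genes called higher, and a common cause was not tested. Without that library 16 of the 18 were called higher, with a median of 1.37. Among the glucose genes themselves, 18 of 36 rose, with a median of 0.10.

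**Figure D4:**
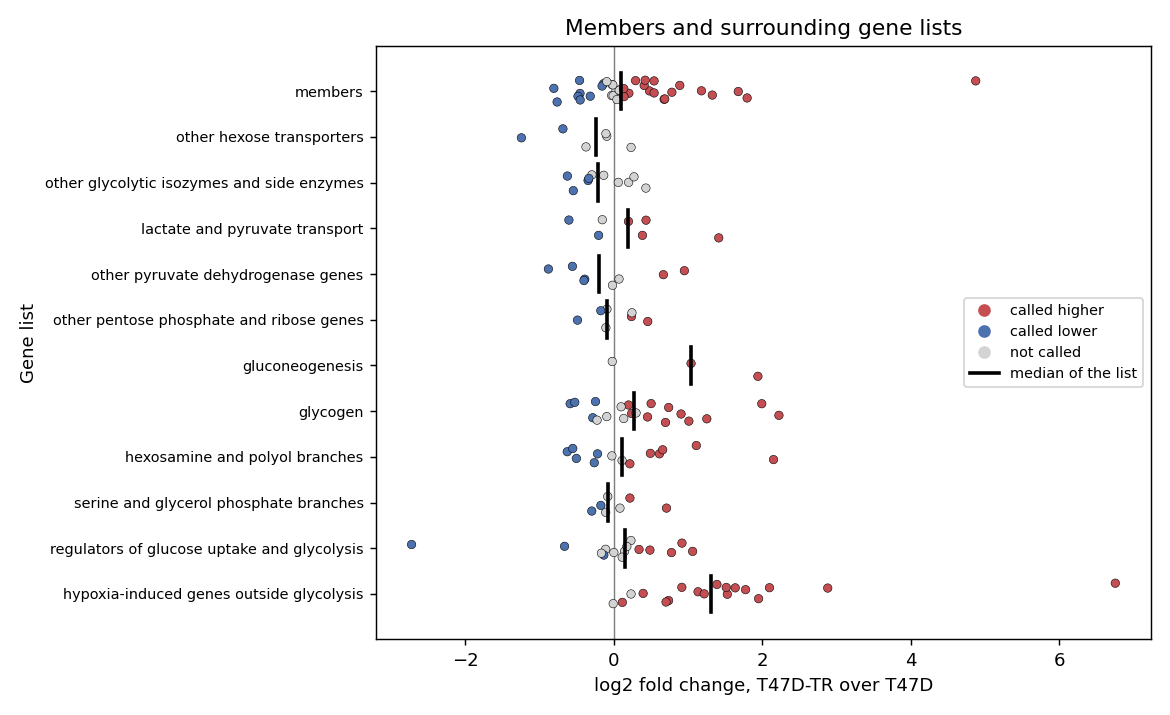
Log2 fold change (T47D-TR over T47D) of each tested gene in the 36-gene set, labelled members, and in 11 surrounding lists. Red points were called higher, blue points lower and grey points not called, black bars are list medians, and vertical scatter within a list has no meaning. The hypoxia-induced list has its median at 1.30, and the 36 members have theirs at 0.10.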

How the data were processed

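Poly(A) RNA of 6 libraries, 3 of T47D and 3 of T47D-TR, was sequenced after TRIzol extraction with a directional kit, per the labels' protocols. The submitters' processing notes name HISAT2 2.1.0, the build GRCh38 and DESeq. Not given in the sources used here are the DESeq version, the read counter, the annotation and whether strand was used. The table deposited by the authors holds whole-number read counts for 20503 genes, although its name says FPKM. Beside them the authors deposited a normalized signal per group, a mean of counts that were each divided by their library's size factor. A linear ratio of these means is deposited as their fold change, with the authors' log2 fold change, p-value and false discovery rate beside it; these were used only where the authors' deposited table is named.

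Counts were scaled with TMM, kept by filterByExpr (minimum count 10, minimum total 15) and tested with glmQLFit and glmQLFTest in edgeR 4.0.16 under R 4.3.3, T47D-TR against T47D, with Benjamini-Hochberg adjustment over 15961 genes. The SE of a log2 fold change is the spread of log2 CPM (prior count 2) between libraries, which is too small for genes of few counts. A mean ± value is an SD over 3 libraries. Library pairs were compared by a chi-square per gene, over genes holding 20 counts or more in the pair. This was 1.83 to 2.24 within T47D, 2.79 between T47D-TR replicates 1 and 2, and 8.36 and 9.58 with replicate 3, so no pair agreed within sampling noise. The labels name no batch. The 14 alternatives were other scalings, voom (limma 3.58.1), DESeq2 1.42.0, other filters, each library left out and a replicate block. Positions and promoters come from RefSeq (GRCh38.p14), and exon overlaps and transcript lengths from GENCODE 29.

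The members, gene lists and tests were chosen with earlier results of these data known. All 36 members are named in pathway order, and from each further list the called genes with the largest rise and the largest fall. Step sums, the 2-fold counts and list counts without T47D-TR replicate 3, and the printed promoters were added after the data were seen.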

Additional observations from a re-analysis of the deposited data

How the results depend on the processing

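The number of members called was 26 to 28 under the other scalings, tests and filters, 25 to 29 when 1 library was left out, and 27 with the replicate block, beside 27 in the reported test. Over all genes, calls ran from 8010 at a mean CPM of at least 5 to 10663 without T47D-TR replicate 3. Same-numbered libraries did not deviate together (correlations of -0.0051, -0.0208 and -0.0138). With deviations from means of only 3 libraries, this cannot decide whether the numbers pair the samples. The block moved the count over all genes from 10053 to 9954. Over all alternatives 17 to 19 members were called higher and 7 to 10 lower. Of 504 member results under an alternative, 488 kept their side of the threshold, 11 lost a call (PFKM, PDHA1 and TKT) and 5 gained one (PFKFB2, TPI1, GAPDH and TALDO1). The sign changed in at least 1 alternative for GPI, PFKFB2, ALDOA, GAPDH, PGAM1 and RPE, none of them called in the reported test. The causes were not tested. Leaving out 1 library moved the share difference of SLC2A3 between 49.8 and 56.1 percentage points, that of PFKFB4 between 18.4 and 21.2, and that of HK2 between -2.48 and -1.13. The difference in the summed share of all 36 genes was 0.0226 to 0.0904 points over its alternatives. At these depths 3 counts correspond to 0.151 to 0.174 CPM, and the ESR1 values lie at or near that floor. Only 3 libraries per group limit the exact tests.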
